A study of Homo sapiens with 6 samples.

Results

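The 10 transcripts described here encode the enzymes of serine synthesis (PHGDH, PSAT1, PSPH), asparagine synthetase (ASNS), and folate one-carbon enzymes of the mitochondrion (SHMT2, MTHFD2, MTHFD1L, ALDH1L2) and of the cytosol (SHMT1, MTHFD1). They are 10 of 23459 genes in the count table, and were selected by pathway with earlier results of the same contrast known. All 10 had a row, and 9 passed the filter on low counts. Their differences between the groups are therefore given as a description. No p-value is given for any of them, and their calls are only counted beside those of all genes. The text asks how the mitochondrial and the cytosolic enzymes compare.

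Raji is an established line of Burkitt's lymphoma, a tumour that derives from germinal centre B cells. The cells carried a lentiviral pLKO.1 short hairpin RNA (shRNA), either the non-target hairpin SHC002 (control shRNA, 3 libraries) or the hairpin OBF1sh1 against OBF1, a B cell coactivator encoded by POU2AF1 (OBF1 shRNA, 3 libraries). Both groups were grown in RPMI1640 with 10% serum and 50 μM 2-mercaptoethanol, exposed to virus for 5 days, and kept for 7 days in 3 μg/ml puromycin. Each group rests on 1 hairpin, and the labels do not say whether its 3 libraries came from separate cultures, so SDs and p-values may reflect technical spread only. Library totals lay between 29569281 and 32612429 gene counts. POU2AF1, the targeted gene, was 2.12-fold lower in the OBF1 shRNA libraries (242 ± 1.66 CPM, SD, n = 3) than in controls (514 ± 2.15 CPM, SD, n = 3). The 6 B cell and the 6 germinal centre markers were all detected, and their sums moved in opposite directions. The B cell sum was 2456 to 2525 CPM in control and 4123 to 4179 CPM in OBF1 shRNA libraries, mostly through MS4A1 (702 and 2078 CPM on average). The germinal centre sum was 999.9 to 1006 CPM in control and 552 to 557 CPM in OBF1 shRNA libraries. Their part in the levels of the enzymes was not tested. T and NK cell markers summed to at most 0.926 CPM and myeloid markers to at most 2.20 CPM in any library. Of the 293T packaging cell markers reported here, CDH2, NEFM and KRT18 had 0 counts in every library, and PAX2 and LHX2 averaged at most 0.180 CPM in either group. The counting is not described in the sources used here, so a gene at 0 in every library is not shown to lack transcripts.

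Serine is made from a glycolytic intermediate in 3 steps, by PHGDH, PSAT1 and PSPH in turn. SHMT enzymes then pass a carbon unit from serine to folate, leaving glycine. In proliferating cells most of this carbon is usually released in mitochondria, by SHMT2, MTHFD2 and MTHFD1L, and leaves as formate, which cytosolic MTHFD1 loads back onto folate for purine and thymidylate synthesis. ASNS makes asparagine from aspartate and glutamine, and is a classical target of ATF4, the transcription factor that cells raise when amino acids run short.

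One stretch is shown for each of the 3 enzymes with a searched motif in a promoter window, because these are elements through which ATF family and MYC family factors are known to act. Sequences are from RefSeq on GRCh38.p14. The window ran from 250 bases before to 50 after an annotated start, and 7 of the 10 enzymes matched, with 11 starts; PSPH, SHMT2 and ALDH1L2 had no entry. The core of the C/EBP-ATF response element was searched on both strands as TGATGNAA, and the E-box as CACGTG, which reads alike on both strands. The motifs do not overlap each other. Capitals mark the motif, and each run is written 5′ to 3′ on the strand of the gene.
ASNS, chr7:97872429-97872516, minus strand, bases -108 to -21 from the start: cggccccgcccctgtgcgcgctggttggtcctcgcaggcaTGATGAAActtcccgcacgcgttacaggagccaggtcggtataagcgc
MTHFD1L, chr6:150866346-150866375, plus strand, bases -140 to -111 from 1 of its starts: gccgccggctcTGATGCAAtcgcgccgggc
MTHFD1, chr14:64388326-64388355, plus strand, bases -27 to 3 around the start: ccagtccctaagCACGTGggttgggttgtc

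The C/EBP-ATF core was found in 4 of the 11 windows, 1 of ASNS and 3 of MTHFD1L, which overlap and share the same match. Among all 35116 promoters of the same length 3.62% held it. In the ASNS window it began at base -68. The E-box was also found in 4 of the 11 windows, 1 of MTHFD1 and the same 3 of MTHFD1L, against 7.26% of all promoters. MTHFD1L, whose enzyme makes formate in mitochondria, held both motifs, with the E-box beginning 25 bases upstream of the core. Counted by enzyme, each motif was found in 2 of the 7 that matched. The shares over all promoters count windows, and no share by gene was computed. A match in such a window is a description of its letters.

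ASNS showed the largest difference of the 10 in proportion to its control level. The control libraries held 446, 449.7 and 453 CPM (counts per 1000000, with TMM scaling, which corrects library totals for composition) and the OBF1 shRNA libraries 112, 116 and 115 CPM. The OBF1 shRNA libraries held 25.4% of the control level on average, and the groups were far apart compared with their spread. The log2 fold change was -1.98 (SE 0.03), a 3.94-fold difference, which ranked 131 from the bottom among 12010 tested genes.

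The serine synthesis enzymes were lower in the OBF1 shRNA libraries at all 3 steps, the first 2 more than the last. PHGDH, which catalyses the entry step, had 353, 374 and 348 CPM in control libraries and 141, 128 and 137 CPM with the OBF1 hairpin. Control replicate 2 was the highest of all 6, and the groups did not overlap. The log2 fold change of PHGDH was -1.41 (SE 0.04), a 2.65-fold difference. PSAT1, the transaminase of the second step, had 448, 449 and 451 CPM against 182, 173 and 179 CPM. The control values of PSAT1 were nearly equal to each other, and its log2 fold change of -1.34 (SE 0.03) lay close to that of PHGDH. PSPH, the phosphatase that releases serine, had 100.5, 104 and 100.1 CPM against 71.1, 70.5 and 68.6 CPM. The groups of PSPH did not overlap either, but its log2 fold change of -0.53 (SE 0.03) was less than that of the 2 enzymes before it. On the scale of CPM per kb of gene length, which allows genes to be added, the 3 enzymes summed to 324 ± 3.92 in control and 136 ± 3.70 in OBF1 shRNA libraries (SD, n = 3), so 41.9% of the control level remained.

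**Figure D1:**
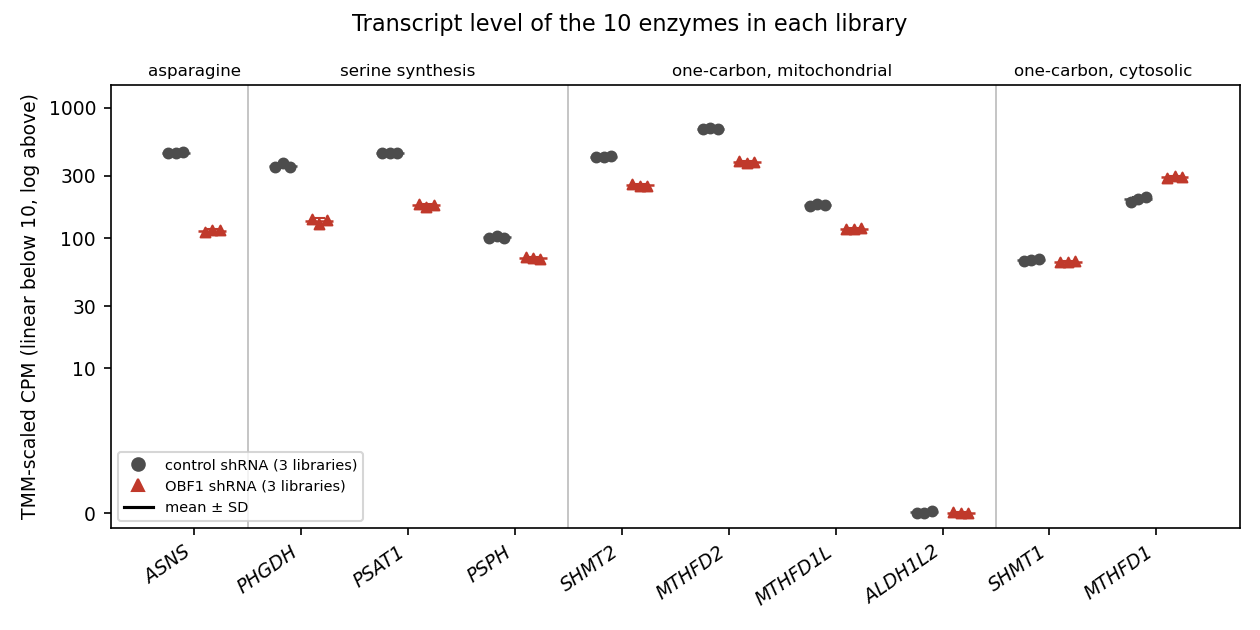
Scaled CPM of each of the 10 enzymes in every library; the axis is linear below 10 and logarithmic above, circles are control and triangles OBF1 shRNA libraries, and bars give the mean ± SD of 3 libraries. The triangles lie below the circles for ASNS, serine synthesis and the 3 detected mitochondrial enzymes, and above them for MTHFD1 (294 against 199 CPM).

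Of the 4 mitochondrial one-carbon enzymes, 3 were lower by similar amounts and ALDH1L2 was barely detected. SHMT2, which splits serine in the mitochondrion, had 416, 415 and 423 CPM in control libraries and 259, 253 and 251 CPM with the OBF1 hairpin. Its highest OBF1 shRNA library stayed well below the lowest control, at a log2 fold change of -0.72 (SE 0.02). MTHFD2, the dehydrogenase and cyclohydrolase of the next steps, was the most abundant of the 10 transcripts, at 683, 696 and 683 CPM against 389, 375 and 382 CPM. The difference of 1.80-fold (log2 fold change -0.85, SE 0.02) was the largest among the mitochondrial enzymes. MTHFD1L, which releases formate, had 176, 183 and 178 CPM against 117, 116 and 119 CPM, with a log2 fold change of -0.60 (SE 0.03). ALDH1L2, which oxidises formyl-folate in mitochondria and was included with this group, had 0, 2 and 5 counts in control and 2, 0 and 0 counts in OBF1 shRNA libraries. It did not pass the count filter, no library exceeded 0.159 CPM, and no fold is given; a count of 0 allows a level of up to 0.106 CPM at these depths (3 counts, counting error only).

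The cytosolic enzymes differed from this. MTHFD1, the trifunctional enzyme that takes up formate, had 190.4, 201 and 205 CPM in control libraries and 288, 299 and 294 CPM with the OBF1 hairpin. Every OBF1 shRNA library was above every control, at a log2 fold change of 0.56 (SE 0.03), a 1.48-fold difference, and MTHFD1 was the one enzyme of the 10 with a higher level. SHMT1, the cytosolic counterpart of SHMT2, had 67.1, 68.2 and 69.0 CPM against 65.3, 65.9 and 66.2 CPM. Its groups did not overlap, but were separated by less than 1 CPM, and the log2 fold change was -0.05 (SE 0.03). That small value depended on scaling: with library sizes alone it was -0.16, and this scaling moved the median gene by -0.11.

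Within each library the balance of the compartments can be read without any scaling between libraries. SHMT2 exceeded SHMT1 per kb by 8.24, 8.09 and 8.17 times in control and by 5.29, 5.10 and 5.05 times in OBF1 shRNA libraries. The ratio of MTHFD2 to MTHFD1 was 5.69, 5.50 and 5.28 in control and 2.14, 2.00 and 2.07 in OBF1 shRNA libraries, a 2.66-fold difference of the means. For MTHFD1L to MTHFD1 it was 0.586, 0.578 and 0.550 against 0.257, 0.248 and 0.258. In all 3 pairs the groups were separate, and the lower MTHFD2 to MTHFD1 ratio combined a lower numerator with a higher denominator. Summed as scaled CPM per kb, the mitochondrial enzymes stood at 477 ± 3.28 in control and 276 ± 4.09 in OBF1 shRNA libraries (SD, n = 3). The cytosolic enzymes stood at 72.6 ± 2.35 and 98.1 ± 1.53 (SD, n = 3). The mitochondrial sum was thus 6.58 ± 0.188 times the cytosolic sum in control and 2.82 ± 0.0857 times in OBF1 shRNA libraries. The mean log2 fold change was -0.72 over the 3 tested mitochondrial enzymes and 0.26 over the cytosolic pair, a difference of -0.98. The cytosolic pair did not move together. From control to OBF1 shRNA libraries MTHFD1 went from 54.8 to 80.9 CPM per kb and SHMT1 from 17.8 to 17.2, so the higher cytosolic sum came from MTHFD1.

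**Figure D2:**
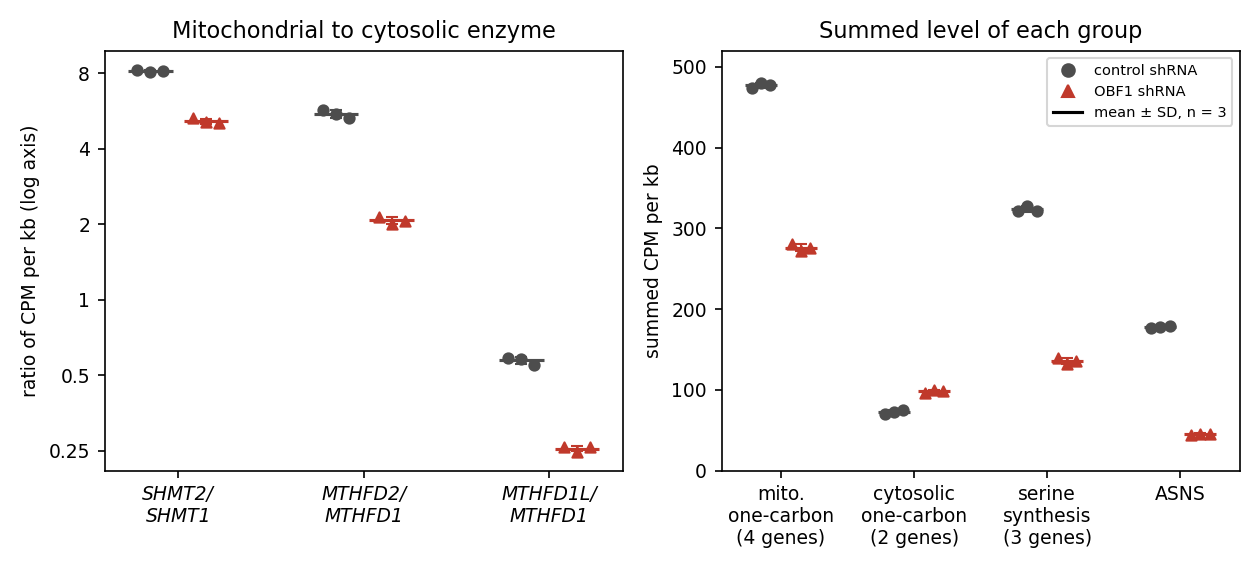
Left, the ratio of a mitochondrial to a cytosolic enzyme in CPM per kb within each library, on a log axis; right, summed CPM per kb of each enzyme group. Circles are control and triangles OBF1 shRNA libraries, with mean ± SD of 3. All 3 ratios are lower in OBF1 shRNA libraries. The cytosolic sum is the one group that is higher (98.1 against 72.6), through MTHFD1, as SHMT1 is slightly lower.

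Compared per kb, the order of the enzymes also differed between the groups. The gene lengths are those deposited with the counts, and the sources used here name no annotation for them. The order and the sums per kb depend on these lengths. In control libraries MTHFD2 led at 301 ± 3.21 CPM per kb, followed by PSAT1 (205 ± 0.739), ASNS (178 ± 1.42), SHMT2 (145 ± 1.62), PHGDH (87.3 ± 3.40) and MTHFD1 (54.8 ± 2.12; SD, n = 3). MTHFD1L (31.3 ± 0.631) and PSPH (31.1 ± 0.638) did not differ beyond their spread, and SHMT1 (17.8 ± 0.241) stood above only ALDH1L2. In OBF1 shRNA libraries MTHFD2 still led, at 167 ± 2.89 CPM per kb. SHMT2 (88.5 ± 1.46) now came next, PSAT1 (81.4 ± 2.07) and MTHFD1 (80.9 ± 1.44) were level within their spread, and ASNS (45.2 ± 0.880) and PHGDH (32.9 ± 1.61) followed. PSPH (21.5 ± 0.408), MTHFD1L (20.6 ± 0.282) and SHMT1 (17.2 ± 0.125) were close together at the lower end. ASNS went from the third place to the fifth, and MTHFD1 from the sixth to the fourth. In bulk RNA, fewer cells that express a gene and less of its RNA per cell cannot be told apart.

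Of the 9 tested enzymes, 7 were called lower and 1 higher, and the median log2 fold change was -0.72. Over all 12010 tested genes, 75.4% were called (edgeR quasi-likelihood F test at a Benjamini-Hochberg threshold of 0.05), 37.9% lower and 37.5% higher, with a median of -0.01. With library sizes alone the calls over all genes divided into 3476 higher and 5778 lower, in place of 4508 and 4550. SHMT1, the enzyme that was not called, was called lower with that scaling. At least 1.5-fold lower were 6 of the enzymes, against 10.4% of all tested genes, and 0 were at least 1.5-fold higher, against 12.9%. The groups did not overlap for any of the 9 tested enzymes, against 76.6% of all tested genes, and 8 of these were lower with the OBF1 hairpin, against 38.7%. Since the enzymes were chosen with this contrast known, nothing is read from these counts.

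Of 10 tested further genes of the mitochondrial folate and glycine pathway, 6 rose and 2 fell, with a median log2 fold change of 0.13. With library sizes alone, 3 rose and 3 fell. The background for this and the lists that follow is the share of all tested genes called, 37.5% higher and 37.9% lower, so 8 of 10 called is near the 75.4% of all genes. Changes of the listed genes are on the log2 scale, and paired CPM values give the control mean first and the OBF1 shRNA mean second. GCSH, the lipoyl carrier protein of the glycine cleavage system, rose by 0.62 (SE 0.04), at 44.7 ± 0.485 and 68.5 ± 0.121 CPM (SD, n = 3; adjusted p = 2.14e-11 in edgeR). Some further genes were picked after their values were seen. All the lists were chosen with earlier results of these data known, so adjusted p-values in them are given as a description. SFXN1, the carrier of serine into mitochondria, rose by 0.25 (SE 0.03; 122 and 145 CPM; edgeR adjusted p = 2.13e-07). SLC25A32, the mitochondrial folate carrier, rose by 0.13 (adjusted p = 0.0012) and MTHFD2L, a relative of MTHFD2, by 0.22 (adjusted p = 0.00779) in the edgeR test. Both calls were lost with library sizes alone, and MTHFD2L was no longer called once control shRNA replicate 2 was left out (edgeR adjusted p = 0.0506). The members that fell were SFXN3, a sideroflexin, from 1.24 to 0.528 CPM, and DMGDH, the dimethylglycine dehydrogenase, from 0.640 to 0.119 CPM, both near the limit of detection. AMT, the aminomethyltransferase of glycine cleavage, was at 2.43 and 1.96 CPM (edgeR adjusted p = 0.0694). GLDC, the decarboxylase of the same system, was not tested, at 0.0304 and 0.0780 CPM.

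Cytosolic folate enzymes and genes of folate supply rose in 5 and fell in 3 of 9 tested. FPGS, which adds the glutamate tail that retains folate in cells, rose by 0.42 (SE 0.04), from 55.2 to 73.9 CPM. MTR, the methionine synthase, fell by 0.32 (SE 0.03), GGH, which removes the glutamate tail, by 0.30 (SE 0.04), and SLC19A1, the reduced folate carrier, by 0.28 (SE 0.06). The edgeR adjusted p-values of these 4 genes ranged from 5.95e-09 for FPGS to 0.000273 for SLC19A1. TYMS, the thymidylate synthase, picked after its value was seen, rose by 0.27 (SE 0.03; 263 and 317 CPM). All 6 purine synthesis genes, some of which use formyl-folate, passed the test, 4 higher and 2 lower, each by less than 1.5-fold. ADSL rose by 0.44 (SE 0.03), ATIC by 0.31 (SE 0.03), PFAS by 0.23 (SE 0.03) and PAICS by 0.12 (SE 0.02). PPAT, the committed step, fell by 0.27 (SE 0.03) and GART by 0.07 (SE 0.02). PAICS lost its call with library sizes alone (edgeR adjusted p = 0.575), and GART when control shRNA replicate 2 or 3 was left out (adjusted p = 0.092 and 0.0516 in edgeR).

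**Figure D3:**
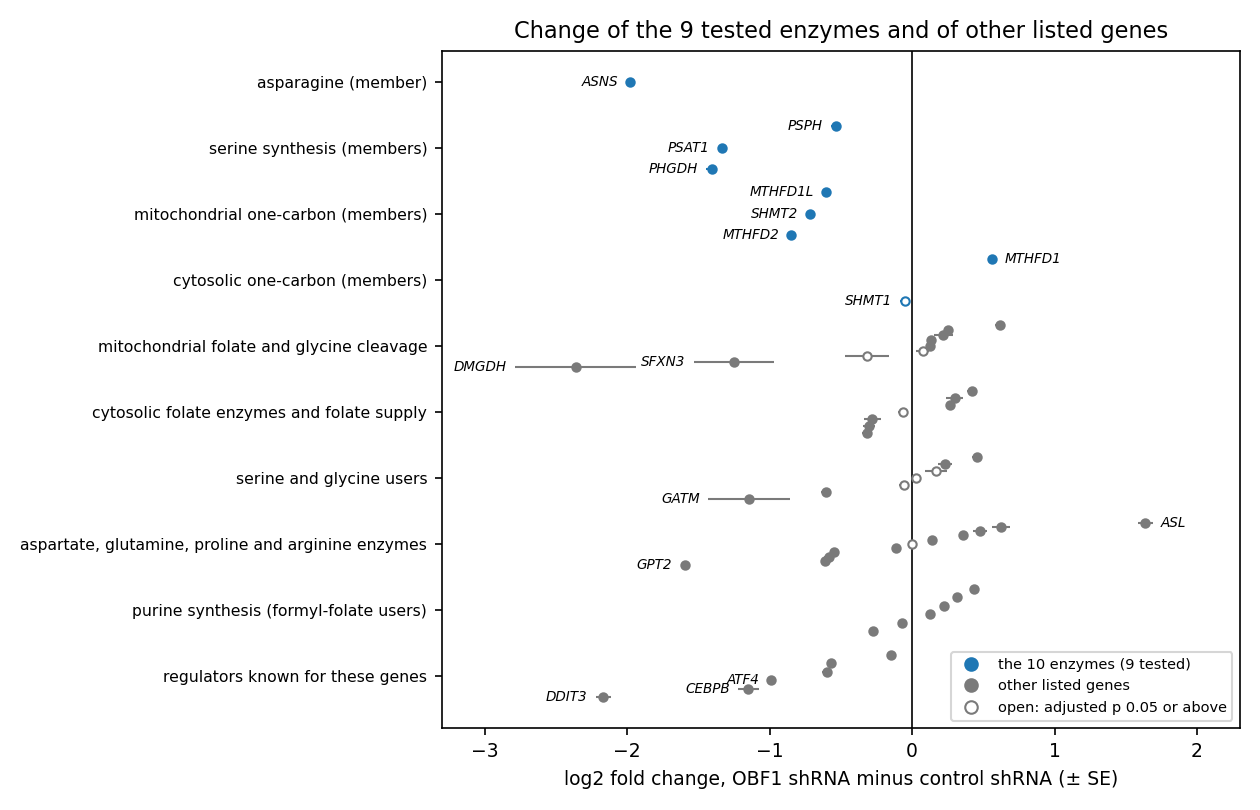
Log2 fold change (OBF1 shRNA minus control shRNA, ± SE) of the 9 tested enzymes in blue and of the other listed genes reported here in grey, by list; open symbols did not pass an adjusted p of 0.05. The enzymes of asparagine, serine and mitochondrial one-carbon synthesis lie left of 0, MTHFD1 lies right of it, and the further folate and purine lists spread to both sides.

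Neighbouring amino acid enzymes went both ways. Of 12 tested genes of aspartate, glutamine, proline and arginine metabolism, 5 rose and 5 fell, with a median log2 fold change of 0.00. GPT2, the mitochondrial alanine transaminase, fell by 1.59 (SE 0.03), at 220.0 ± 3.72 and 72.9 ± 1.74 CPM (SD, n = 3; adjusted p = 1.45e-18 in edgeR). GOT1, the cytosolic aspartate transaminase, fell by 0.61 (SE 0.03) and PYCR1, a mitochondrial enzyme of proline synthesis, by 0.58 (SE 0.04). PYCR3, its cytosolic relative, rose by 0.63 (SE 0.06). ASL, the argininosuccinate lyase, had a log2 fold change of 1.64 (SE 0.05), at 11.4 ± 0.588 and 35.4 ± 0.622 CPM (SD, n = 3; adjusted p = 5.57e-15 in edgeR). Among 7 tested genes that use serine or glycine, 2 rose and 2 fell, with a median of 0.03. SPTLC1, of sphingolipid synthesis, fell by 0.60 (SE 0.04). GATM, of creatine synthesis, fell from 0.789 to 0.357 CPM, near the limit of detection. With a filter of 1 CPM in 3 libraries, 1 gene of this list was called lower. ALAS1, the first enzyme of haem synthesis, rose by 0.45 (SE 0.03) and PTDSS2, a phosphatidylserine synthase, by 0.23 (SE 0.05). SRR, the serine racemase, was at 9.14 and 10.3 CPM (edgeR adjusted p = 0.0584), and passed once control shRNA replicate 2 was left out (adjusted p = 0.0117 in edgeR) or the low-count filter was dropped (0.0487). With library sizes alone 4 genes of this list were lower.

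Transcripts of factors known to regulate these enzymes were lower in all 6 tested cases, against 37.9% of all tested genes, 75.4% of which were called in either direction. This list, like the other lists, was chosen with earlier results of these data known. Nothing is therefore read from the count, and the adjusted p-values are given as a description. ATF4 fell from 854 ± 20.7 to 431 ± 5.38 CPM (SD, n = 3), a log2 fold change of -0.99 (SE 0.03, edgeR adjusted p = 1.35e-16). DDIT3, which encodes the ATF4-induced factor CHOP, fell by 2.17 (SE 0.05), and CEBPB fell by 1.15 (SE 0.07). CEBPG, an ATF4 partner, fell by 0.60 (SE 0.03), and NFE2L2, encoding the antioxidant regulator NRF2, by 0.57 (SE 0.03). MYC, which is known to activate one-carbon and nucleotide synthesis genes, fell by 0.15 (SE 0.03), at 255 ± 2.16 and 230 ± 4.25 CPM (SD, n = 3; adjusted p = 3.95e-05 in edgeR). TRIB3 had 0 counts in all 6 libraries, which, as the counting is not described, is not shown to be a lack of transcripts. ATF3 was at 0.0834 and 0.288 CPM, and neither gene was tested. With no low-count filter 7 of the 8 listed factors were called in edgeR, 6 lower and 1 higher, the latter being ATF3, with 1 to 10 counts per library. Whether any of these factors had a part in the levels of the enzymes was not tested.

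The profiles nearest to ASNS over the 6 libraries were sought among the 7509 genes whose mean reached 20 CPM, by the Euclidean distance of log2 CPM from the control mean. SESN2, which encodes the leucine sensor sestrin 2, was the nearest at a distance of 0.188, at 134 ± 3.69 CPM in the control group against 36.5 ± 1.03 CPM with the OBF1 hairpin (SD, n = 3). RASSF6, a Ras association domain gene, followed at 0.235, the heat shock protein gene HSPA1B at 0.309 and the amino acid transporter subunit SLC3A2 at 0.319. With 2 groups of 3, such a distance mostly reflects the size of the difference between the groups.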

How the data were processed

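Per the labels' protocols, a kit for stranded mRNA libraries was used. The authors deposited raw counts per gene for 6 libraries, and gene lengths as a further column. The submitters' processing notes list hg19 and mm9; the sources used here do not name an aligner, counter, annotation or strand setting. How reads shared with near-identical copies were counted is therefore unknown; among rows named as copies of the enzymes only MTHFD2P1 was found, with 5 to 11 counts per library. Rows are NCBI gene identifiers, and 23308 of 23459 matched a symbol in a RefSeq table of GRCh38.p14. Because builds differ, gene coordinates are not given except for RefSeq promoter sequences. All count columns were used.

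Groups, replicates and columns were matched by sample titles. Counts were analysed with R 4.3.3 and edgeR 4.0.16 (filterByExpr with min.count 10 and min.total.count 15, TMM, quasi-likelihood F test, no covariate, Benjamini-Hochberg over 12010 genes); the script was first tested on simulated data. SEs were derived from the F statistic (log2 fold change over its square root). CPM per kb divides scaled CPM by the deposited length. Replicates differed by more than counting noise (chi-square per degree of freedom 1.89 to 3.28).

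The enzymes and gene lists were chosen with earlier results of these data known. Named are the 10 enzymes, POU2AF1, up to 5 tested genes of each list with the largest change, genes called against most of their list, all tested regulators, and the 4 profiles nearest to ASNS. Alternatives were DESeq2 1.42.0, limma-voom (limma 3.58.1), other scalings and filters, the replicate block and leaving out each library. Protein comparisons were not made. A few listed genes, a marker of the packaging cells among them, are counted in their lists but are not reported here by name, value or point in a plot.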

Additional observations from a re-analysis of the deposited data

How the results depend on the processing

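The 9 tested enzymes kept their sign under all 14 alternatives. Library sizes alone moved each by -0.11 on the log2 scale, beyond the spread between replicates, and upper-quartile factors moved SHMT1 to -0.07. SHMT1 was called lower with library sizes alone, and no other call among the enzymes changed in any alternative. The mitochondrial minus cytosolic difference of -0.98 ranged from -0.995 to -0.964 with 1 library left out. POU2AF1 kept its call in each alternative. Without division by gene length, SHMT2 to SHMT1 was 6.14 in control and 3.87 in OBF1 shRNA libraries, MTHFD2 to MTHFD1 3.46 and 1.30, and MTHFD1L to MTHFD1 0.899 and 0.400. The number of called genes, 9058, was lowest with DESeq2 (8344) and highest with no low-count filter (9547), and leaving out each library gave values from 8632 to 8974. The replicate numbers did not pair the libraries: deviations of same-numbered libraries correlated at 0.01, -0.12 and -0.06, and 0 of 6 correlated best with their own number. With the replicate block 8759 genes were called, 8747 of them called in the same direction without it, and no call among the enzymes or listed genes changed. With library sizes alone, calls changed for, among others, AMT, MTRR, SPTLC2, PTDSS1 and OAT (now lower), and DLD and ALDH18A1 (lost), all named for this change; MTRR was also called lower without OBF1 shRNA replicate 1 (edgeR adjusted p = 0.0192) and SPTLC2 and MTRR with upper-quartile factors. Each motif was still found in 2 enzymes without the 50 bases after the start. The count of windows was not repeated in this way. In 1 window of MTHFD1L the C/EBP-ATF core began at base 25 and the E-box at base -1, so both reach past that start. Depth limits ALDH1L2, with 7 and 2 counts in all.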
